A study of Mus musculus with 20 samples.

Results

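The genes described here are 10 members of the cytosolic heat shock system, measured in sensory ganglia 1 day after a peripheral nerve was cut. They are the small heat shock protein genes Hspb1, Hspb8 and Cryab, the HSP70 genes Hspa1a, Hspa1b and Hspa8, the HSP110 gene Hsph1, the J-domain gene Dnajb1, the HSP90 gene Hsp90aa1, and Hsf1, which encodes their master transcription factor. They were picked by symbol from the deposited table of exonic counts, which lists 78258 genes, and all 10 were found and were among the 28564 genes expressed enough to be tested. The tissue was the lumbar dorsal root ganglia (L4 to L6), which hold the cell bodies of sensory neurons together with glia, vessels and connective tissue. Whole ganglia were used, not sorted neurons.

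The 10 mice were male. The 5 conditional knockout mice, called cKO here, were Ahr fl/fl and carried Thy1CRE-ERT2/EYFP, a Cre recombinase that tamoxifen activates in cells using the Thy1 promoter. The 5 control mice were Ahr f/f or f/+ without that transgene named, and the titles call them wildtype. Ahr encodes the aryl hydrocarbon receptor, a ligand-activated transcription factor. Every mouse of both genotypes was given tamoxifen by injection, 100 mg/kg daily over 5 days, at 17 weeks of age, and had its sciatic nerve transected 4 weeks later. The ganglia of both sides were taken 1 day after the lesion, so the contralateral side is the uncut side of an injured mouse, not tissue of an intact one. The 4 groups of 5 libraries were control contralateral, control ipsilateral, cKO contralateral and cKO ipsilateral. One label field names a spinal cord injury, whereas the protocol text describes the sciatic lesion used above.

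Heat shock proteins keep other proteins folded. Small heat shock proteins hold unfolding proteins in a soluble state without using ATP, and HSP70, recruited to its clients by J-domain proteins and recharged by HSP110 acting as a nucleotide exchange factor, refolds them; HSP90 finishes the folding of kinases and receptors, the aryl hydrocarbon receptor among them. Under proteotoxic stress HSF1 is released, forms trimers and binds repeats of the bases nGAAn (heat shock elements) in front of many of these genes. In sensory neurons, HSPB1 is known as a protein that accumulates after axotomy and that favours survival and axon growth, and mutations in HSPB1 and HSPB8 cause inherited motor and sensory neuropathies.

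Depth ran from 76.2 to 118.5 M counts per library (M, mega). The injury was visible in the libraries: Atf3, a transcription factor gene switched on in axotomised neurons, had 11.4 ± 1.81 CPM (counts of a gene per M counts of its library, TMM-normalised; mean ± SD, n = 5 here and throughout) contralaterally and 426.5 ± 12.8 CPM ipsilaterally in control mice, and 9.24 ± 0.630 and 417 ± 40.04 CPM in cKO mice. Ahr, the targeted gene, stood at 24.2 ± 2.10 CPM in contralateral ganglia of control mice and at 20.4 ± 0.536 CPM in those of cKO mice. This difference did not pass the test (log2 difference -0.25, SE 0.066, edgeR with Benjamini-Hochberg adjustment, adjusted p 0.103). On that side Ahr did not overlap between genotypes (21.3 to 27.2 CPM in control, 19.5 to 21.0 CPM in cKO mice), as was so for 1.52% of all tested genes. In ipsilateral ganglia it stood at 34.4 ± 2.86 CPM in control and 31.9 ± 2.94 CPM in cKO mice (log2 difference -0.11, edgeR adjusted p 1). All 19 listed sensory neuron markers were detected in every group. Some libraries also held muscle RNA: the summed CPM of 10 skeletal muscle genes ran from 5.71 to 2036, with the highest values in H100 contralateral (2036), H65 ipsilateral (759) and H62 contralateral (467). Calls of the genes named below were also made without those 3 mice, and that value is given where the call changed.

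Hspb1 and Hspb8 were higher on the cut side in both genotypes and in every analysis run, while Cryab, the third small heat shock gene, was called in neither genotype. In control mice 3 of the 10 passed the test (adjusted p under 0.05 in edgeR), 2 of them higher (Hspb1 and Hspb8) and 1 lower (Hsf1); among all tested genes 29.9% passed, 13.8% higher and 16% lower. In cKO mice 3 of the 10 passed, all of them higher (Hspb1, Hspb8 and Hspa1a), against 31.3% of all tested genes, 16.2% higher and 15.1% lower. In this fit, which does not use the pairing of sides within a mouse, the share of members called was close to that of genes at large. With mouse as a block 5 of the 10 passed in each genotype, against 30% and 31.6% of all tested genes, and Hspa1a and Dnajb1 were then called higher in both. The median log2 fold change of the 10 was 0.13 in control and 0.15 in cKO mice, against -0.0047 and -0.030 over all tested genes. Because ganglia were sequenced in bulk, a higher level cannot be told apart from a larger share of the cells that express the gene.

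**Figure D1:**
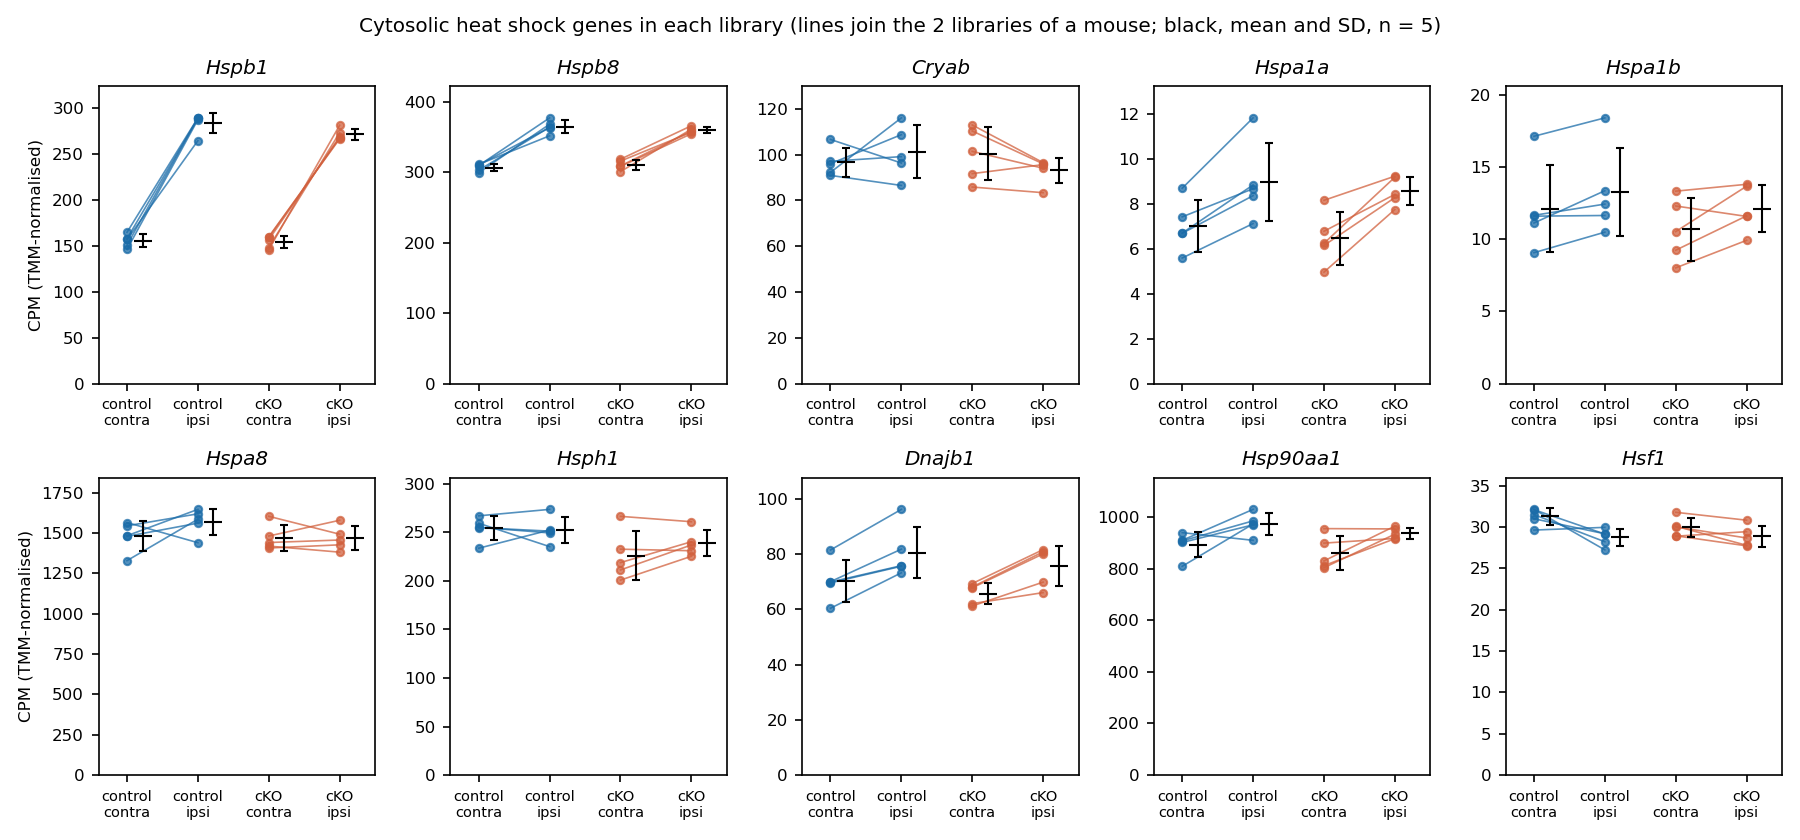
TMM-normalised CPM (y axes, from 0) of each gene in the 20 libraries, by genotype and side; a line joins the contralateral and ipsilateral library of 1 mouse, and black marks give the mean and SD of 5 mice. Hspb1 and Hspb8 rose in all 10 mice with no overlap between sides; Hspa1a and Dnajb1 were also higher ipsilaterally in all 10 mice, from levels that differed between mice.

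Hspb1 (HSP25 or HSP27, a small heat shock protein that binds unfolding proteins and actin) showed the largest change of the 10. In control mice H62, H63, H65, H96 and H97 it stood at 151, 165, 158, 146 and 157 CPM contralaterally and at 289, 289, 289, 287 and 264 CPM ipsilaterally. In cKO mice H61, H64, H95, H99 and H100 the values were 146, 148, 159, 159.8 and 157 CPM contralaterally and 281, 273, 267, 266 and 269 CPM ipsilaterally. Every ipsilateral library lay above every contralateral one, in both genotypes. The mean went from 155 ± 7.11 to 284 ± 10.8 CPM in control mice, 1.83-fold (log2 fold change 0.87, SE 0.036, edgeR adjusted p 1.785e-13), and from 154 ± 6.51 to 271 ± 6.07 CPM in cKO mice, 1.76-fold (log2 fold change 0.82, SE 0.036, edgeR adjusted p 3.134e-13). Only Hspb1 and Hspb8 among the members had sides that did not overlap, in either genotype, as did 23.6% of all tested genes in control and 20.2% in cKO mice.

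The Hspb1 transcript shares sequence with other loci. Of its 150-base windows 36.6% also occur in the pseudogene Hsp25-ps1, and 36.0% in Gm9817, so reads could have been split among these loci. Both were called higher as well, with log2 fold changes of 0.95 and 0.95 in control and 0.91 and 0.94 in cKO mice, close to that of Hspb1. How much of the Hspb1 count was lost to them was not tested.

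Hspb8 (HSP22, which works with the co-chaperone BAG3 to hand misfolded proteins to autophagy) rose by less but as evenly. Contralateral values in control mice, in the order given above, were 303, 311, 309.6, 299.6 and 311 CPM, and ipsilateral values 364, 364, 377, 368 and 352 CPM. In cKO mice they were 301, 309, 308, 316 and 319 CPM contralaterally and 361, 359, 355, 357 and 366 CPM ipsilaterally. The sides did not overlap in either genotype, and the rise was seen in all 10 mice. It amounted to 1.19-fold in control mice (307 ± 5.24 to 365 ± 9.20 CPM, log2 fold change 0.25, SE 0.024, edgeR adjusted p 7.211e-08) and 1.16-fold in cKO mice (311 ± 6.94 to 359.6 ± 4.38 CPM, log2 fold change 0.21, SE 0.024, edgeR adjusted p 6.982e-07). No 150-base window of Hspb8 occurs in another annotated transcript.

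Cryab (alpha B-crystallin, a small heat shock protein abundant in lens, muscle and glia) did not follow the other small heat shock genes. In control mice it had 95.99, 107, 90.9, 92.2 and 97.04 CPM contralaterally and 109, 96.3, 86.5, 116 and 99.1 CPM ipsilaterally. In cKO mice it had 101, 113, 110.3, 91.7 and 85.8 CPM contralaterally and 94.0, 96.5, 95.9, 95.6 and 83.3 CPM ipsilaterally. The sides overlapped in both genotypes, with 3 of 5 control mice and 1 of 5 cKO mice higher on the cut side. Neither the control difference (log2 fold change 0.07, 95% interval -0.10 to 0.23) nor the cKO difference (-0.11, -0.27 to 0.06) passed the test. Cryab was lowest of its group in the 2 libraries with the most muscle RNA, at 85.8 CPM in H100 contralateral and 86.5 CPM in H65 ipsilateral. It was also lowest of its group in the other library of each of these mice, at 83.3 and 90.9 CPM. In H62 contralateral, the next in muscle RNA, it stood at 95.99 CPM, the median of its group.

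Marker genes of handling and of cell types were summed in the same libraries. The summed CPM of 10 immediate early genes, which respond to handling as well as to injury, was 142 to 169 contralaterally and 219.7 to 269 ipsilaterally in control mice, and 136 to 169.6 and 215 to 248 in cKO mice, with 7 and 6 of the 10 genes called higher. The summed CPM of 6 satellite glia markers was 734 to 795 contralaterally and 873 to 959 ipsilaterally in control mice (2 of 6 called higher), and 709 to 880.4 and 866 to 899 in cKO mice (2 of 6 called higher). The 19 sensory neuron markers summed to 15854 to 18042 and 15880 to 17591 CPM in control mice, and to 15462 to 18185 and 15455 to 16638 CPM in cKO mice. Macrophage markers (10 genes, 1 called higher in control and 0 in cKO mice) summed to 90.2 to 168 and 106 to 204 CPM in control mice, and to 90.8 to 233 and 137 to 230.5 CPM in cKO mice. Endothelial markers (7 genes, 3 called higher in control and 0 in cKO mice) summed to 96.02 to 137 and 113 to 166 CPM, and to 112 to 165 and 127 to 150.4 CPM. For fibroblasts (6 genes, 0 called) the control sums were 802 to 1356 and 924 to 1519 CPM and the cKO sums 935 to 2236 and 848 to 1557.5 CPM. Immediate early gene sums did not overlap between sides in either genotype. Satellite glia sums did not overlap in control mice but did in cKO mice, and the macrophage, endothelial and fibroblast sums overlapped in both. Among all tested genes 13.8% were called higher in control and 16.2% in cKO mice. Of 10 Schwann cell, 5 erythroid and 10 muscle genes 0 were called in either genotype. None of the markers was at 0 in a whole group. Their part in the rises of Hspb1 and Hspb8 was not tested.

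The inducible HSP70 genes Hspa1a and Hspa1b, which are nearly silent in unstressed cells and are the classical reporters of HSF1 activity, had low levels in every group, and Hspa1a had the next largest fold change of the members after Hspb1. Hspa1a in control mice had 8.69, 6.69, 7.42, 5.59 and 6.69 CPM contralaterally and 11.8, 8.36, 8.67, 7.12 and 8.84 CPM ipsilaterally. In cKO mice it had 6.77, 4.96, 6.24, 8.15 and 6.14 CPM contralaterally and 8.42, 7.74, 9.18, 9.23 and 8.27 CPM ipsilaterally. The ipsilateral library was the higher one in all 10 mice, although the groups overlapped because mice differed in their baseline. The cKO change was called (6.45 ± 1.16 to 8.57 ± 0.632 CPM, 1.33-fold, log2 fold change 0.41, SE 0.13, edgeR adjusted p 0.0245). The call was lost without any 1 of H61, H64, H95 and H100, with adjusted p from 0.0505 to 0.0890, while the log2 fold change of these smaller fits stayed between 0.36 and 0.43. The control change, 7.01 ± 1.14 to 8.96 ± 1.73 CPM, was of similar size and was not called (log2 fold change 0.35, SE 0.13, edgeR adjusted p 0.0521); it passed in 7 of 19 alternative analyses.

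Hspa1b in control mice had 17.1, 11.6, 11.7, 9.06 and 11.1 CPM contralaterally and 18.4, 11.6, 12.4, 10.5 and 13.4 CPM ipsilaterally. In cKO mice it had 12.3, 8.01, 10.5, 13.3 and 9.24 CPM contralaterally and 11.6, 9.92, 13.7, 13.8 and 11.6 CPM ipsilaterally. The groups overlapped, and 5 of 5 control and 4 of 5 cKO mice were higher ipsilaterally. The log2 fold changes, 0.13 (95% interval -0.24 to 0.50) in control and 0.18 (-0.19 to 0.55) in cKO mice, did not pass the test. The pair lies on chromosome 17 and its transcripts are near-identical over long stretches. Of the 150-base windows of Hspa1a 38.1% are also present in Hspa1b, and 40.5% the other way, so the split of reads between them is uncertain. The Hspa1b to Hspa1a ratio ran from 1.281 to 1.971 and was lower ipsilaterally in all 10 mice. The locus Gm20481 shares 9.65% of the Hspa1a windows and 3.62% of the Hspa1b windows. It was called higher in both genotypes (log2 fold change 0.44, edgeR adjusted p 0.0198 in control, and 0.41, 0.0264 in cKO mice). How reads were divided among these loci was not tested. Summed, Hspa1a and Hspa1b went from 19.1 ± 4.10 to 22.2 ± 4.78 CPM in control mice and from 17.1 ± 3.29 to 20.7 ± 2.26 CPM in cKO mice. The sum was higher in all 10 mice but not called in the fit without pairing (log2 fold changes 0.22 and 0.27, edgeR adjusted p 0.353 and 0.219). With mouse as a block the sum passed in both genotypes and Hspa1b in cKO mice, as given below.

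Hspa8 (HSC70, the constitutive HSP70 that also strips clathrin from vesicles) was the most abundant member. Its lowest, median and highest libraries were 1329, 1484 and 1565 CPM in control contralateral ganglia and 1441, 1586 and 1647 CPM in control ipsilateral ganglia. In cKO ganglia they were 1408, 1442 and 1604 CPM contralaterally and 1382, 1457 and 1579.5 CPM ipsilaterally. The sides overlapped in both genotypes, and neither the control difference (log2 fold change 0.09, 95% interval -0.02 to 0.19) nor the cKO difference (-0.0031, -0.11 to 0.10) was called. With H97 left out the control difference passed (0.15, edgeR adjusted p 0.0300). H97 was the only control mouse whose Hspa8 was lower on the cut side. Of the Hspa8 windows 56.0% also occur in other annotated transcripts, mainly processed copies such as Gm15459.

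Hsph1 (HSP110, the nucleotide exchange factor of HSP70) did not differ between sides beyond the spread of the mice. It stood at 267, 255, 255, 234 and 259 CPM contralaterally and 274, 249.5, 251, 252 and 235 CPM ipsilaterally in control mice. In cKO mice it stood at 233, 211, 219, 267 and 201 CPM contralaterally and 231, 237, 240.4, 261 and 225 CPM ipsilaterally. The contralateral cKO library of H99 was the highest of its group, and the sides overlapped in both genotypes. The log2 fold changes were -0.0092 (95% interval -0.14 to 0.12) in control and 0.08 (-0.05 to 0.21) in cKO mice.

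Dnajb1 (HSP40, the J-domain partner that starts the HSP70 cycle and a known HSF1 target) was higher ipsilaterally in all 10 mice. Control values were 81.5, 69.9, 70.0, 60.4 and 69.6 CPM contralaterally and 96.2, 75.8, 81.8, 73.3 and 75.6 CPM ipsilaterally. The cKO values were 68.1, 62.1, 67.8, 69.4 and 61.2 CPM contralaterally and 80.8, 66.1, 80.1, 81.7 and 69.9 CPM ipsilaterally. Mouse H62 was highest on both sides among controls and H96 lowest on both, so the groups overlapped. Across groups the difference was not called in control (70.3 ± 7.49 to 80.6 ± 9.32 CPM, log2 fold change 0.20, SE 0.082, edgeR adjusted p 0.0788) or in cKO mice (65.7 ± 3.76 to 75.7 ± 7.21 CPM, 0.20, SE 0.082, edgeR adjusted p 0.0648). It passed in 2 of 18 alternative analyses in control and in 7 of 18 in cKO mice, among them the cKO comparison without the mice with muscle RNA (0.21, adjusted p 0.0219).

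Hsp90aa1 (the inducible cytosolic HSP90) lay just short of the threshold in both genotypes. Its lowest, median and highest libraries were 809, 908 and 939.8 CPM contralaterally and 910.1, 973 and 1030.1 CPM ipsilaterally in control mice, and 804, 830.2 and 955 CPM and 916, 934 and 965 CPM in cKO mice. In each genotype 4 of 5 mice were higher ipsilaterally, the exceptions being H97 and H99. The log2 fold change was 0.12 in both (SE 0.048 in each, edgeR adjusted p 0.0559 in control and 0.0537 in cKO mice). The control difference passed in 8 of 18 alternative analyses and the cKO difference in 7 of 18, with adjusted p from 0.00997 to 0.189 and from 0.0111 to 0.198. Of its windows 36.2% are shared with processed copies, 30.0% with Gm12346. That copy was called higher in cKO mice (log2 fold change 0.14, edgeR adjusted p 0.0475) but not in control mice (0.12, 0.107). The copies Gm5844 and Gm5511 were called in neither genotype.

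Hsf1 was the only member called lower, in control mice alone. In control mice it had 32.1, 31.5, 31.0, 32.1 and 29.6 CPM contralaterally and 29.2, 28.2, 29.2, 27.2 and 29.96 CPM ipsilaterally. In cKO mice it had 31.8, 28.9, 28.9, 30.1 and 30.02 CPM contralaterally and 30.8, 29.4, 27.7, 27.8 and 28.7 CPM ipsilaterally. In each genotype 4 of 5 mice were lower on the cut side, with H97 and H64 the exceptions, and the groups overlapped. The control change was small (31.3 ± 1.03 to 28.8 ± 1.05 CPM, log2 fold change -0.12, SE 0.037, edgeR adjusted p 0.0174), and the cKO change was not called (-0.05, 95% interval -0.13 to 0.03). The control call was lost without any 1 of H62, H63, H65 and H96 (-0.12 to -0.08, adjusted p 0.0533 to 0.159), with no filter on low counts (-0.11, adjusted p 0.0877), and without the 3 mice with muscle RNA (-0.11, adjusted p 0.183). These are transcript levels; the activity of HSF1 is set largely after translation and was not measured.

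**Figure D2:**
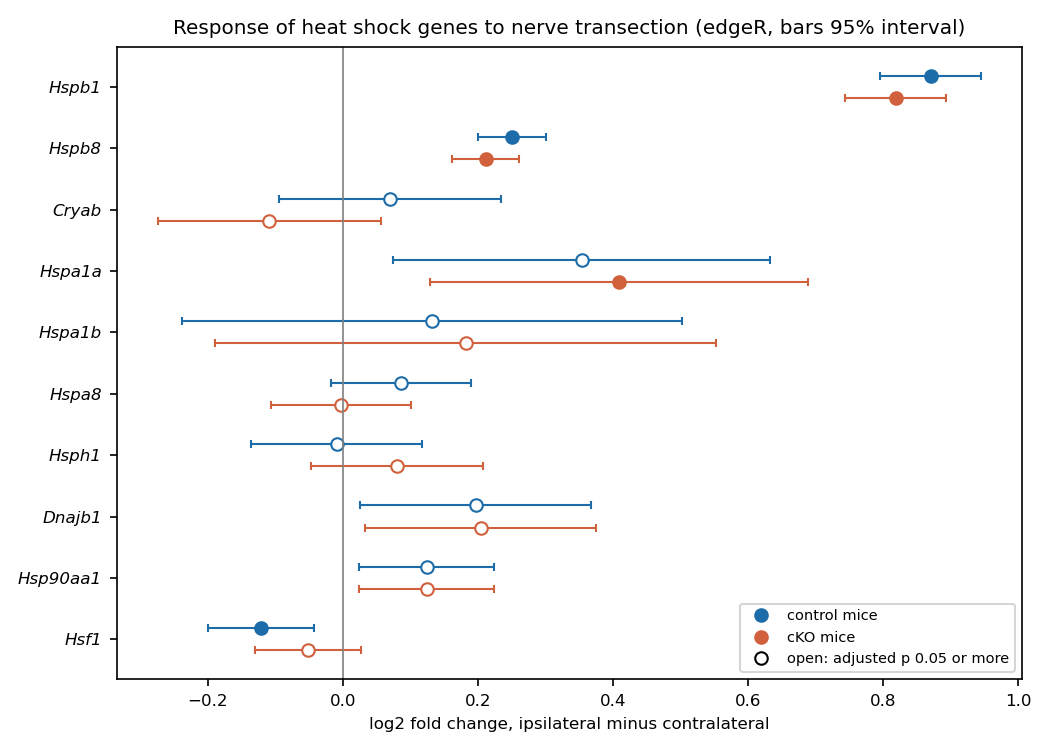
Log2 fold change, ipsilateral minus contralateral, of the 10 genes in control (blue) and cKO (orange) mice, from edgeR on 5 mice per genotype; bars are 95% intervals, and filled points passed an adjusted p of 0.05. Hspb1 stands at 0.87 and 0.82 and Hspb8 at 0.25 and 0.21, with intervals clear of 0, and the intervals of the 2 genotypes overlap for every gene.

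Both libraries of a mouse come from the same animal, and this pairing was used in a second fit. With each mouse as a block in the edgeR model, the calls beyond Hspb1 and Hspb8 were as follows. Dnajb1 was then called higher in both (log2 fold change 0.20, adjusted p 4.703e-04 in control and 0.20, adjusted p 3.941e-04 in cKO mice). Hspa1a was called in both (0.35, adjusted p 9.544e-04 and 0.42, adjusted p 2.164e-04), and Hspa1b in cKO mice (0.19, adjusted p 0.0389). Under the block the sum of Hspa1a and Hspa1b passed in both genotypes (0.22, adjusted p 0.0124 and 0.29, adjusted p 0.00223). Hspb1 and Hspb8 stayed called, as did Hsf1 in control mice (-0.12, adjusted p 0.0252), whereas Hsp90aa1 did not pass (adjusted p 0.0619 and 0.0555).

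In summed CPM, which are not divided by transcript length, Hspb1 contributed more than any other member to the difference between sides. The 10 members summed to 3308 ± 170.3 CPM contralaterally and 3679 ± 159 CPM ipsilaterally in control mice, and to 3235 ± 164 and 3493 ± 91.0 CPM in cKO mice. Hspb1 made up 34.6% of the difference between those control means and 45.4% of that between the cKO means. Hspa8 and Hsp90aa1, whose own differences were not called, made up 24.3% and 21.6% of the control difference and -1.2% and 29.9% of the cKO difference, Hspa8 being lower there by 3.11 CPM. Hspa8 made up 44.7% of the summed control contralateral CPM and 42.7% of the ipsilateral sum. Hspa1a and Hspa1b together added 1.95 and 1.15 CPM in control mice and 2.11 and 1.44 CPM in cKO mice, against 129 and 117 CPM added by Hspb1.

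Levels per kilobase of merged exon set the members in an order in which injury moved Hspb1. In control contralateral ganglia the order was Hspa8 (344 ± 21.5 CPM per kb), Hsp90aa1 (227 ± 12.6), Hspb8 (157 ± 2.69), Hspb1 (151 ± 6.89), Cryab (65.3 ± 4.17), Hsph1 (35.0 ± 1.71), Dnajb1 (21.9 ± 2.34), Hsf1 (4.41 ± 0.145), Hspa1b (4.32 ± 1.07) and Hspa1a (2.36 ± 0.385). The neighbours that overlapped between libraries were Hspb8 with Hspb1 and Hsf1 with Hspa1b. The cKO contralateral order was the same. On the cut side Hspb1 came second in both genotypes, at 275 ± 10.5 CPM per kb in control and 263 ± 5.89 in cKO mice; its libraries overlapped those of Hsp90aa1 (248 ± 10.9) in control mice and lay above them (238 ± 5.56) in cKO mice. Hsf1 and Hspa1b, which overlapped, stood in the other order on the cut side.

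Between genotypes no member was called on either side. Contralaterally 0 of 10 passed, against 0.0735% of all tested genes, and 1 of the 10 had an unadjusted p under 0.05 in edgeR, against 17.5% of all tested genes. DESeq2 also called 0, against 5% of the genes to which it gave an adjusted p. Ipsilaterally 0 of 10 passed, against 0.007%, with 0 members under an unadjusted p of 0.05 (2.36% of all tested genes) and 0 called by DESeq2. The member under that unadjusted p was Hsph1, with 254 ± 12.4 CPM in contralateral ganglia of control mice and 226 ± 25.4 CPM in those of cKO mice (log2 difference, cKO minus control, -0.17, 95% interval -0.30 to -0.04, edgeR adjusted p 0.166). Without mouse H99, whose cKO library was the high one, it was -0.23 and passed (adjusted p 0.00580); 11.5% of all tested genes were called contralaterally in that fit, in place of 0.0735%. For Hspb1 the interval of the log2 difference ran from -0.09 to 0.06 contralaterally and from -0.14 to 0.0093 ipsilaterally, and for Hspa1a from -0.40 to 0.16 and from -0.34 to 0.21.

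The mouse numbers fall in a low and a high range, H61 to H65 and H95 to H100, with 2 or 3 mice of each genotype in each; the labels do not say what the numbers mark. Within the ranges the Hspb1 response was 0.87 and 0.86 in control and 0.92 and 0.75 in cKO mice on the log2 scale. The genotype difference of the inducible HSP70 genes had opposite signs in the 2 ranges. Contralaterally Hspa1a was -0.38 in the low and 0.15 in the high range (cKO minus control, log2), and Hspa1b -0.41 and 0.12. Ipsilaterally the values were -0.23 and 0.16, and -0.37 and 0.13. Dnajb1 also differed in sign on both sides (-0.18 and 0.03 contralaterally, -0.20 and 0.05 ipsilaterally). So did Hspb1, Hspb8 and Hspa8 contralaterally, and Hsp90aa1 and Hsf1 ipsilaterally. Cryab and Hsph1 had the same sign in both ranges on each side. Mouse H62, a control, had the highest Hspa1a, Hspa1b and Dnajb1 of its group on both sides.

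**Figure D3:**
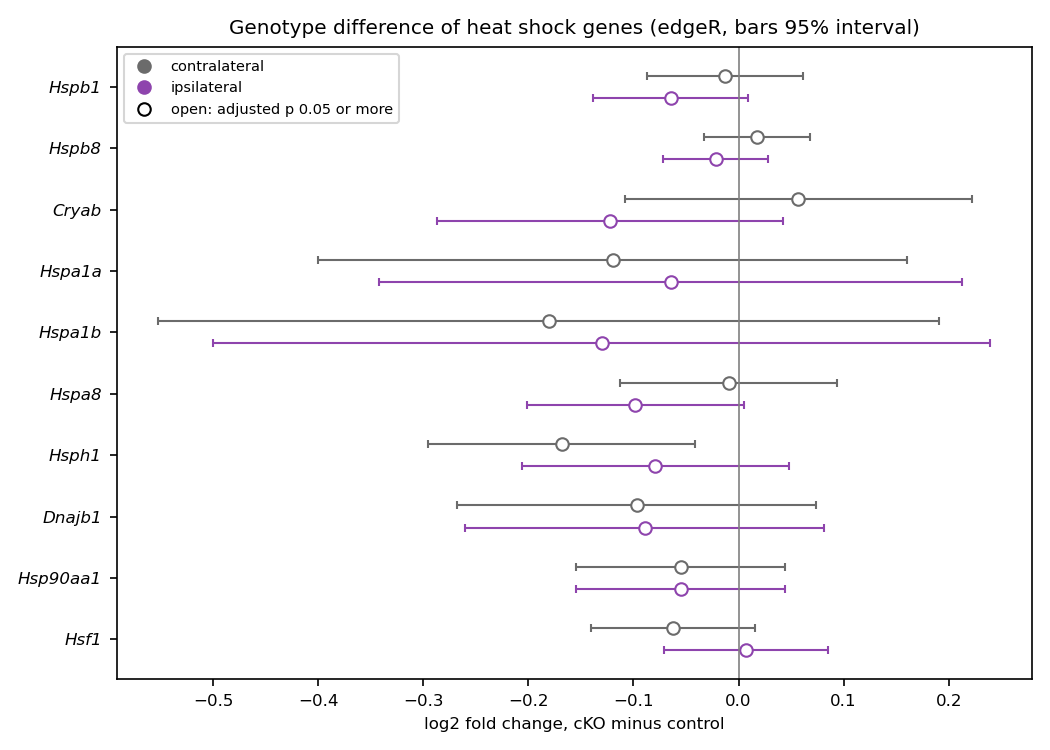
Log2 fold change, cKO minus control, of the 10 genes on the contralateral (grey) and ipsilateral (purple) side, from edgeR on 5 against 5 mice; bars are 95% intervals, and all points are open because none passed. The Hsph1 interval on the contralateral side is the one that does not reach 0 (-0.30 to -0.04).

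The injury response itself was compared between genotypes by the interaction term. No member passed in edgeR (0 of 10, against 0% of all tested genes; 0 of the 10 had an unadjusted p under 0.05, against 9.8% of all tested genes, and DESeq2 called 0), and the lowest adjusted p was 0.591, for Cryab. The difference in response, cKO minus control, was -0.05 for Hspb1 (95% interval -0.16 to 0.05), -0.04 for Hspb8 (-0.11 to 0.03), 0.05 for Hspa1a (-0.34 to 0.45) and -0.18 for Cryab (-0.41 to 0.05), all on the log2 scale. The Hspb1 interval reaches -0.16 at most, against a response of 0.87 in control mice. The Hspa1a interval is wider than the response itself in this fit, which does not use the pairing of sides within a mouse. With mouse as a block the difference for Hspa1a was 0.07 (SE 0.090, against 0.19 without the block). For Hspb1 it was then -0.05 (SE 0.055), for Hspb8 -0.04 (SE 0.039) and for Cryab -0.17 (SE 0.087), and none was called.

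Other chaperone genes, 85 in 8 lists of which 84 were tested, changed in both directions. In control mice 16 were called higher and 8 lower (median log2 fold change 0.02), and in cKO mice 21 higher and 14 lower (median 0.02). That is 28.6% of the tested list in control mice, against 29.9% of all tested genes, and 41.7% in cKO mice, against 31.3%. There were 19 genes called in both, all in the same direction, which is 79.2% of the 24 called in control and 54.3% of the 35 called in cKO mice. Between genotypes and in the interaction edgeR called 0 of 84, with 17 contralaterally, 1 ipsilaterally and 6 in the interaction at an unadjusted p under 0.05. Over all tested genes the shares under that p were 17.5%, 2.36% and 9.8%. DESeq2 called 2 of the list contralaterally, against 5% of all genes with an adjusted p, and 0 in the others. Without H99 edgeR called 11 of them contralaterally, where 11.5% of all tested genes were called. Without H64 the cKO injury count was 22 in place of 35, and the share of all tested genes 24.9% in place of 31.3%.

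**Figure D4:**
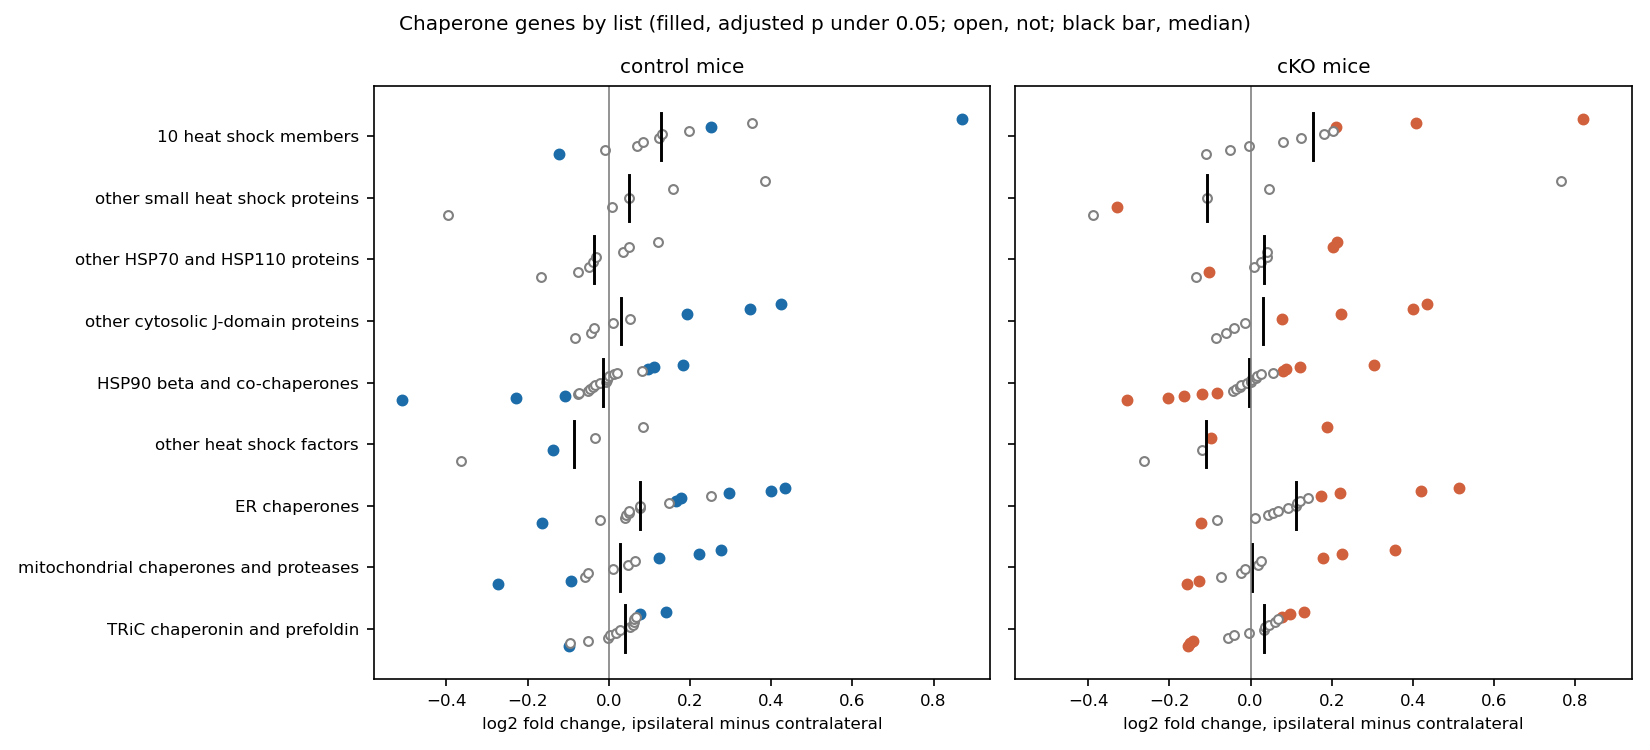
Log2 fold change, ipsilateral minus contralateral (x axis), of each tested gene in the 10 members and 8 lists of other chaperones, in control (left) and cKO (right) mice; filled points passed an adjusted p of 0.05 and black bars are list medians. Hspb1, at 0.87 and 0.82, is the highest point of either panel, and the lists spread to both sides of 0.

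Of 17 tested relatives of the members 1 was called in control mice (5.9%, against 29.9% of all tested genes) and 6 in cKO mice (35.3%, against 31.3%). Of 5 tested other small heat shock proteins none was called in control mice and Hspb2 was lower in cKO mice (log2 fold change -0.33, edgeR adjusted p 0.0323), at 2.75 CPM contralaterally and 2.19 CPM ipsilaterally; 10.6% of the Cryab windows overlap this neighbouring gene. Of 8 other HSP70 and HSP110 genes none was called in control mice, and in cKO mice Hspa2 (0.20) and Hspa12b (0.21) were higher and Hspa14 (-0.10) lower. Among 4 other heat shock factors and regulators, Hsf4 was lower in control mice (-0.14, edgeR adjusted p 0.0368), and in cKO mice Hsf2 was higher (0.19) and Hsbp1, which encodes an HSF1-binding protein, lower (-0.10). Hspb2, Hspa2, Hspa12b, Hspa14, Hsf2 and Hsbp1 are named after their values were seen. Without the 3 mice with muscle RNA, Hspb2 fell short of the test at -0.18 (edgeR adjusted p 0.329), as did Hspa14 (-0.08, 0.228) and Hsbp1 (-0.09, 0.154), whereas Hspa2, Hspa12b and Hsf2 kept their calls. With mouse as a block the same 3 calls were lost (edgeR adjusted p 0.0838, 0.0907 and 0.0571), and that of Hsf4 in cKO mice was gained (-0.12, 0.0232). Leaving out 1 mouse ended the call of Hspb2 without H64 or H100 (0.0793 and 0.252; -0.18 without H100), of Hspa12b without H64 (0.0969), of Hsbp1 without H64, H95 or H100 (0.0740 to 0.156) and of Hspa14 when any 1 of 8 mice was left out (0.0537 to 0.162). Hspb2, Hspa14 and Hsbp1 were also not called with no filter (0.0656, 0.264 and 0.149) or with only the libraries compared (0.0628, 0.160 and 0.146), nor Hspa14 with RLE size factors (0.0561).

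Of 8 other cytosolic J-domain genes 3 were called higher in control and 4 in cKO mice, none was called lower, and the rest did not pass; among all tested genes 13.8% and 16.2% were called higher. Dnajb5 rose from 20.3 ± 0.878 to 27.2 ± 2.08 CPM in control mice (log2 fold change 0.43, edgeR adjusted p 1.503e-05) and by 0.43 in cKO mice. Dnajc7, an HSP70 and HSP90 co-chaperone, rose from 142 ± 2.59 to 181 ± 4.92 CPM (0.35, and 0.40 in cKO mice), and Dnajb6, a suppressor of polyglutamine aggregation, from 85.3 ± 0.556 to 97.5 ± 1.64 CPM (0.19, and 0.22 in cKO mice).

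Of 20 genes for HSP90 beta and co-chaperones, 3 were higher and 3 lower in control mice (30.0% called, against 29.9% of all tested genes), and 4 higher and 5 lower in cKO mice (45.0%, against 31.3%). Bag3, the partner of HSPB8, rose from 239.8 ± 11.6 to 272 ± 10.8 CPM in control mice (log2 fold change 0.18, edgeR adjusted p 0.00887) and by 0.30 in cKO mice. Without the 3 mice with muscle RNA the control value was 0.20, close to that of all mice, with an edgeR adjusted p of 0.0621 from the fewer mice. Bag2, an inhibitor of the ubiquitin ligase CHIP, fell from 34.4 ± 1.71 to 24.2 ± 2.23 CPM (-0.51, edgeR adjusted p 3.683e-06, and -0.30 in cKO mice), and Bag4 stood at -0.23 in control and -0.20 in cKO mice. Ptges3, which encodes the HSP90 co-chaperone p23, was higher by 0.11 in control and by 0.09 in cKO mice.

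Of 39 tested genes of the endoplasmic reticulum, of mitochondria and of the cytosolic chaperonin lists, 14 were called in control mice (35.9%, against 29.9% of all tested genes) and 16 in cKO mice (41.0%, against 31.3%). Of 15 endoplasmic reticulum chaperones 5 were higher and 1 lower in control mice, and 4 higher and 1 lower in cKO mice. Hspa5 (BiP, the HSP70 of that compartment) rose from 284 ± 22.2 to 384 ± 27.9 CPM in control mice, 1.35-fold (log2 fold change 0.43, edgeR adjusted p 1.879e-06), and by 0.42 in cKO mice, a larger fold than that of any cytosolic HSP70 gene here in control mice; the difference between those folds was not tested. Sdf2l1 rose by 0.40 and 0.51, Dnajb9 by 0.30 and 0.22, and Calr by 0.18 in control mice. In cKO mice Calr stood at 0.12 and was not called, a call that turned with many settings: it was called with mouse as a block (0.12, edgeR adjusted p 0.0135), with DESeq2 (0.0358), with RLE size factors (0.0480), with no filter (0.0269), with genes averaging 1 CPM or more (0.0385), with only the libraries compared (0.0196), and without H62 or H97 (0.0359 and 0.0194). Of 10 mitochondrial chaperones and proteases 3 were higher and 2 lower in each genotype, with Clpx at 0.28 and 0.35, Hspa9 (mortalin, the mitochondrial HSP70) at 0.22 and 0.23, Lonp1 at 0.12 and 0.18, and Grpel2 at -0.27 and -0.13. Of 14 genes for the TRiC chaperonin and prefoldin 2 were higher and 1 lower in control mice, and 3 higher and 3 lower in cKO mice; Cct4 stood at 0.14 and 0.13, Vbp1 at -0.10 and -0.14, and Cct5 at 0.08 (0.03, not called, in cKO mice). Without the 3 mice with muscle RNA the control calls of Lonp1, Vbp1, Cct5 and Hsf4 were lost, with edgeR adjusted p of 0.0535, 0.0804, 0.134 and 0.0602; their log2 fold changes from the fewer mice were 0.12, -0.11, 0.08 and -0.16, close to those of all mice. Some of these calls also turned on 1 mouse: Bag3 in control mice lost its call without H96 (adjusted p 0.0631), Hsf4 without H62, H63, H95, H96 or H97 (0.0597 to 0.225), Vbp1 without H63, H95, H96 or H97 (0.0605 to 0.108), and Cct5 without H62 or H96 (0.0837 and 0.0706). Other settings ended some of them too: Hsf4 in control mice with RLE size factors (0.0545) and with no filter (0.0912), Vbp1 in control mice with no filter (0.0750), and Grpel2 in cKO mice with no filter (0.140) and with only the libraries compared (0.0937). In cKO mice Ptges3 lost its call without H61 (0.0566) and Grpel2 without H61, H64, H97 or H99 (0.0566 to 0.121).

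Genes whose pattern was most like that of Hspb1, Hsph1 and Cryab were found among the 11828 genes averaging 5 CPM or more, by the mean absolute difference in log2 CPM, each gene centred on its own mean, over the 20 libraries. For Hspb1 they were Slc35e4 (mean difference 0.050), AC140336.1 (0.054), Myadm (0.057), Smad1 (0.059) and Mapk6 (0.060), against a median of 0.43 over all genes. For Hsph1 they were Hspa4l (0.042), Zswim5 (0.044), Zbtb7a (0.045), Hspa4 (0.047) and Pi4ka (0.048), against a median of 0.12; Hspa4l and Hspa4 are the other HSP110 genes. For Cryab they were Shc4 (0.046), Pla2g16 (0.055), BC049715 (0.057), Mal (0.057) and Ndrg1 (0.062), against 0.14; Mal is one of the Schwann cell markers used here. The points share libraries, so these are descriptions.

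Promoter windows, 250 bases before to 50 after the start of transcription, were taken from RefSeq on GRCm38.p6 for the 6 members with an entry (Hspb1, Hspb8, Hspa1a, Hspa1b, Hsph1 and Dnajb1). They were searched on both strands for pairs of heat shock element units, GAANNTTC and TTCNNGAA, which can overlap each other, for 3 such units in a row, and for GCGTG, the core to which the aryl hydrocarbon receptor binds. Of 32851 mouse promoter windows 7.86% held GAANNTTC, 8.52% TTCNNGAA, 0.603% 3 units in a row and 32.4% GCGTG. The 250 bases before the start are shown for Hspb1, the member with the largest response, and for Hspa1a, its classical HSF1-driven counterpart with low levels, with GAANNTTC in capitals. Hspb1 lies on the plus strand at chr5:135887669-135887918 and Hspa1a on the minus strand at chr17:34972157-34972406.
Hspb1: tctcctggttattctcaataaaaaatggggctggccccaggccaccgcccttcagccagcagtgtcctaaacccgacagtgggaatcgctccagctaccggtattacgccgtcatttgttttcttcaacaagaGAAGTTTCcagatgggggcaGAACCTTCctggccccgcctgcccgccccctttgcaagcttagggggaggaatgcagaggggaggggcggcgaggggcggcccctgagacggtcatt
Hspa1a: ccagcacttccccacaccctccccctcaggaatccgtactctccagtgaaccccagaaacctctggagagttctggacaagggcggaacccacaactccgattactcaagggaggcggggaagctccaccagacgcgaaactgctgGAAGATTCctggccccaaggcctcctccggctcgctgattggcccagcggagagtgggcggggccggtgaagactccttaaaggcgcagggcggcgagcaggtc
Hspb1 held GAANNTTC at -117 and -97 from the start. Hspa1a and Hspa1b each held it at -104, in windows that differ at 4 of 300 bases. Hspb8 held 1 match, from base 3 of the transcript, and so none in the 250 bases before it. Hsph1, with 2 annotated starts, held TTCNNGAA at -33 or -54 and a run of 3 units after either start, which includes both pair forms. Dnajb1, also with 2 starts, held none of the heat shock element forms searched, and was the only member of the 6 with GCGTG, at -65 from its first start. A match is a stretch of letters and does not show that a factor binds there.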

How the data were processed

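Stranded mRNA libraries of mouse dorsal root ganglia were sequenced as paired 150-base reads, per the labels. The authors deposited whole-number exonic counts per gene and library, without normalization. The submitters' processing notes name HISAT2, Picard, mm10 and mm39 without roles; the counting program and its strand setting are not given in the sources used here. Symbols and exon lengths came from GENCODE M21 (51487 of 78258 identifiers matched, 98.1% of counts). All 20 libraries were fitted together with edgeR 4.0.16 in R 4.3.3 (TMM, filterByExpr with minimum count 10 and total 15, robust quasi-likelihood F-test, 1 mean per group). P-values were Benjamini-Hochberg adjusted over 28564 genes and called under 0.05. CPM are TMM-normalised. A rise per mouse is ipsilateral minus contralateral log2 CPM. The libraries of a mouse are paired, since they come from the same animal; their deviations from group means correlated across genes with a median of 0.186 (-0.0546 to 0.361). Alternatives were DESeq2 1.42.0, no filter on low counts, RLE size factors, genes averaging 1 CPM or more, mouse as a replicate block, only the libraries compared, mouse number range as a covariate, each mouse left out, and, chosen after seeing the data, the 3 mice with muscle RNA left out and the block with Hspa1a and Hspa1b summed. Members and lists were chosen with earlier results of these data known. Other chaperones were named by a rule, up to 4 called genes per list with the largest control change and at least 5 CPM. Counts carry no molecular identifiers. The fit was tested on simulated counts. A deposited FPKM table was not used here.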

Additional observations from a re-analysis of the deposited data

Results flagged for a closer look

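2 values stood apart from the other 4 libraries of their group by more than the Dixon 95% critical value of 0.71 for 5 samples. Hspb1 in the ipsilateral library of control mouse H97 was 264 CPM, below its 4 companions, and the gap took 0.923 of the range of the group. Without H97 the Hspb1 response in control mice stayed called. Cryab in the ipsilateral library of cKO mouse H100 was 83.3 CPM, the lowest of its group, with a gap of 0.814 of the range. H100 was also the mouse with the most muscle RNA, in its contralateral library (2036 CPM, against 146 CPM ipsilaterally). Chance flags about 1 in 20 groups, and 66 groups were looked at.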

How the results depend on the processing

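Hspb1 and Hspb8 passed in both genotypes under all 18 alternatives (Hspb1 0.85 to 0.91 in control and 0.79 to 0.84 in cKO mice, Hspb8 0.25 to 0.28 and 0.20 to 0.23, log2 fold change). The number of members called, 3 in each genotype, moved with the setting: in control mice to 6 with DESeq2, and to 5 with RLE size factors, with genes averaging 1 CPM or more and with the replicate block; in cKO mice to 5 with DESeq2, with genes averaging 1 CPM or more and with the replicate block. Over all tested genes the shares called were 30.5% with DESeq2, 29.5% with RLE, 40.5% with genes averaging 1 CPM or more and 30% with the block in control mice, and 32.3%, 42.8% and 31.6% with DESeq2, that mean and the block in cKO mice. Leaving out 1 mouse gave 2 to 5 in each genotype (5 without H97 or H99 in control and without H96 in cKO mice, where 24%, 30.9% and 30.4% of all tested genes were called), and 0 to 1 for the contralateral genotype comparison. Without the 3 mice with muscle RNA the counts were 2 and 4, against 21% and 25% of all tested genes. The replicate block changed no call of the interaction.

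Signs turned only for differences that were not called under any setting; the cause was not tested. Hsph1 after injury in control mice was 0.000245 with DESeq2, 0.000246 with RLE, 0.000742 with no filter, 0.00726 with only the libraries compared and -0.0288 to 0.0371 with 1 mouse left out. Hspa8 in cKO mice was 0.00129, 0.00129, 0.0141 and 0.0151 under the same 4 settings and -0.0281 to 0.0284 with 1 mouse left out. Contralaterally between genotypes, only the libraries compared gave 0.00218 for Hspb1 and 0.00506 for Hspa8, and leaving out 1 mouse gave -0.0301 to 0.0235 and -0.0423 to 0.0236. Without the 3 mice with muscle RNA the contralateral differences were 0.0673 for Hspa1a, 0.0800 for Hspa1b, 0.00844 for Hspa8 and 0.0249 for Dnajb1, and the ipsilateral ones 0.102 for Hspa1a, 0.0591 for Hspa1b and 0.0531 for Dnajb1. Ipsilaterally, leaving out 1 mouse gave -0.138 to 0.0549 for Hspa1a, -0.205 to 0.0163 for Hspa1b and -0.0174 to 0.0248 for Hsf1. In the interaction, leaving out 1 mouse gave -0.0137 to 0.122 for Hspa1b, -0.0211 to 0.0332 for Dnajb1 and -0.052 to 0.0328 for Hsp90aa1. Hsp90aa1 was -0.00469 with DESeq2, -0.00468 with RLE and -0.00576 with genes averaging 1 CPM or more; without the 3 mice it was -0.0189, and Hspa1b was -0.0209. Hspa1a, the member with the fewest counts, rests on 391 to 1022 counts per library.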
